A study of Mus musculus with 6 samples.

Results

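The sterol and fatty acid synthesis genes are 30 listed genes, taken by symbol, that the SREBP transcription factors drive or that control those factors, and all 30 were found among the 55400 genes measured. By role, 8 encode the early steps up to the prenyl diphosphates (the mevalonate steps), 11 the steps from squalene to cholesterol (the sterol steps), 6 the synthesis of fatty acids, and 5 regulate or carry sterols. Their levels come from 6 RNA-seq libraries of polyadenylated RNA, 3 labelled Setd5sh and 3 labelled control. The cells were motor neuron progenitors, taken on day 4, that had been derived in culture from embryonic stem cells of C57BL/6 mice grown on feeder fibroblasts. Every library is labelled wild type and had retinoic acid at 1 µM and the hedgehog agonist SAG at 0.5 µM from the second day of embryoid body culture onward, and doxycycline at 1 µg/mL, 36 h earlier, is given for both groups. The name Setd5sh has the form of a short hairpin RNA against Setd5, a SET domain protein, but the labels do not spell this out, nor whether control cells carried another hairpin, nor whether replicates came from separate cultures. P-values therefore measure only the spread between these libraries, which may be technical.

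Cells build cholesterol from acetyl-CoA through mevalonate, farnesyl diphosphate and squalene, and they build fatty acids from the same acetyl-CoA through malonyl-CoA. Both routes are switched on by SREBP proteins, which are held in the endoplasmic reticulum by SCAP and INSIG when sterols are plentiful and cut free when sterols run low. SREBP2, from Srebf2, acts mainly on sterol genes and SREBP1, from Srebf1, more on fatty acid genes. Dividing neural progenitors use both products for new membrane, and cholesterol is also attached to Sonic hedgehog itself.

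Of the 30 genes 0 passed the test between Setd5sh and control libraries, in edgeR's quasi-likelihood test with p-values adjusted over all 12199 genes tested (smallest adjusted p = 0.995). The share of all tested genes that passed was 0%, and DESeq2 and limma also called 0 genes. At an unadjusted p under 0.05 stood 1 of the 30, Fasn, against 1.22% of all tested genes in either direction and 0.615% with Setd5sh higher. The log2 fold change, Setd5sh minus control, was above 0 for 22 of the 30 genes, or 73.3%, against 42.6% of all tested genes, with a median of 0.081 against -0.043. The 95% interval of that difference, from the standard error of the fit, lay within a 2-fold change either way for 27 of the 30 genes. No upper bound exceeded 0.86. The exceptions were Idi1, Elovl6 and Stard4, whose lower bounds were -1.29, -1.26 and -1.16, so a decrease of more than 2-fold lay within their intervals. Sterol and fatty acid genes did not part: the median log2 fold change was 0.072 over the 19 genes of the mevalonate and sterol steps and 0.085 over the 6 fatty acid genes.

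Total counts ran from 19639303 to 27660851 in Setd5sh libraries and from 19871993 to 32046466 in control libraries, and each of the 30 genes had at least 370 reads in every library. Setd5 itself stood at 14.4, 13.5 and 12.9 FPKM (counts scaled to exonic length and to the library's total) in Setd5sh replicates 1, 2 and 3, against 22.2, 18.8 and 16.7 FPKM in control replicates 1, 2 and 3, with no overlap, a log2 fold change of -0.51 (-0.36 without control replicate 1) and an adjusted p of 0.995 in edgeR. All 8 motor neuron progenitor markers were above 1 FPKM, and their summed level was 346 to 405 FPKM in Setd5sh libraries and 308 to 335 FPKM in control libraries. These markers did not move together: 5 had a positive log2 fold change and 3 a negative one. Olig2, the most abundant, had 116, 75.7 and 89.6 FPKM in Setd5sh libraries and 78.7, 65.6 and 76.6 FPKM in control libraries. Olig1 was higher in every Setd5sh library, as were 3.07% of all tested genes. Sox1 was lower in every Setd5sh library, as were 2.14%. Markers of neurons, 6 of 8 above 1 FPKM, summed to 61.9 to 84.4 FPKM in Setd5sh libraries, against 49.6 to 51.3 FPKM in control libraries. Neither the progenitor sum nor the neuron sum overlapped between the groups. Without Olig2, however, the progenitor sum did overlap, with control replicate 3 just above Setd5sh replicate 3. The gap in the neuron sum rested on Tubb3, a neuronal tubulin. Without Tubb3 the other 7 markers summed to 29.4 to 31.4 FPKM in Setd5sh libraries and 23.5 to 34.1 FPKM in control libraries, which overlap. Of the 6 neuron markers tested, 5 had a positive log2 fold change, against 42.6% of all tested genes, and 0 passed. Without control replicate 1, 5 of the 6 were at an unadjusted p under 0.05 in edgeR, against 2.96% of all tested genes. In that fit the median log2 fold change of the 6 was 0.91, Mnx1 stood at -0.77, and again 0 passed. Ina, like Tubb3, was higher in every Setd5sh library, at 7.71, 5.80 and 9.12 FPKM, against 3.79, 4.40 and 4.21 FPKM in control libraries. Mnx1, the 1 negative marker, had 7.16, 17.1 and 5.05 FPKM in Setd5sh libraries and 10.65, 22.8 and 11.3 FPKM in control libraries. Pluripotency markers, 3 of 6 above 1 FPKM, summed to 9.09 to 62.0 FPKM in Setd5sh libraries and 18.9 to 82.8 FPKM in control libraries, and markers of feeder fibroblasts, 2 of 7 above 1 FPKM, to 7.06 to 9.13 FPKM in Setd5sh libraries and 5.28 to 8.40 FPKM in control libraries. In both groups the pluripotency sum was highest in replicate 2. Setd5sh replicate 2 and control replicate 2 were also the most alike of all library pairs, with log2 levels correlating at 0.996 across genes. No listed marker was at 0 in all 6 libraries. The part of these cell types in the values below was not tested, and in bulk RNA fewer cells of a type and less RNA per cell cannot be told apart. Control replicate 1 stood apart: its log2 levels correlated with those of the other libraries at 0.940 to 0.960 across genes, against at least 0.974 between any other pair, and mitochondrial transcripts took 2.18% of its reads, against 0.718% to 1.41% in the 5 other libraries. The log2 fold changes below are therefore given with and without that library.

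Upstream sequence is shown for 4 of the 30 genes: Hmgcs1 and Idi1, which were highest in control replicate 1, and Fasn and Mvk, which with all 6 libraries had the highest log2 fold changes of the fatty acid and mevalonate steps. These are RefSeq sequences of the GRCm38.p6 build, on the gene's strand, 250 bases before to 50 after the start. Capitals mark the letters CCAAT on either strand, the box of the factor NF-Y, which binds beside SREBP at many sterol genes, and TCACNCCAC on either strand, the core of a sterol regulatory element. They lie at chr13:119690101-119690400 on the plus strand (Hmgcs1), chr13:8885356-8885655 on the plus strand (Idi1), chr11:120824498-120824797 on the minus strand (Fasn) and chr5:114444019-114444318 on the plus strand (Mvk).
Hmgcs1: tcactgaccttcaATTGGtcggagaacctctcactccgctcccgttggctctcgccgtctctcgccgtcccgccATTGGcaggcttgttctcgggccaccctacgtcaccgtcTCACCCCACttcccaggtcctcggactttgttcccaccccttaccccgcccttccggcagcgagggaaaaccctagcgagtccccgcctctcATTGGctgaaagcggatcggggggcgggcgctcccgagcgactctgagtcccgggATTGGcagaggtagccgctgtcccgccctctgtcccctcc
Idi1: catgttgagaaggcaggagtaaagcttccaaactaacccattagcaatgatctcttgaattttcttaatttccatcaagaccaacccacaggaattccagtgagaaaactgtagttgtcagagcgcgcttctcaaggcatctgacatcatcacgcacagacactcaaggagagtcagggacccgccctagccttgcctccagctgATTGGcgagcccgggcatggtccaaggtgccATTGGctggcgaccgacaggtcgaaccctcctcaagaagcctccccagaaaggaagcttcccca
Fasn: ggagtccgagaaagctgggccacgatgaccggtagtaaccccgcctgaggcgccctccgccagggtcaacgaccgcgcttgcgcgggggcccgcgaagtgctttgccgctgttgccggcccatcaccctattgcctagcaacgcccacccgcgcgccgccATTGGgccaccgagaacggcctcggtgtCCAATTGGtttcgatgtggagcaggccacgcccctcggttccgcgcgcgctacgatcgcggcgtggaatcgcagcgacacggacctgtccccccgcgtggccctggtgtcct
Mvk: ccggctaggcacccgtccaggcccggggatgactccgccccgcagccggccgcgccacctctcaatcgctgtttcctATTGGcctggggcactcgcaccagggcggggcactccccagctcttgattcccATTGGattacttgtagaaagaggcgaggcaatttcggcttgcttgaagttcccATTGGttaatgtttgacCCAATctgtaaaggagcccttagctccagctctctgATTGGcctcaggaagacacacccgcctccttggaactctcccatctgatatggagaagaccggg
Hmgcs1 holds the sterol element letters once, as TCACCCCAC with its first base at position -137 from the start, and CCAAT or its complement 4 times. Mvk holds CCAAT letters 5 times, Fasn 3 times, of which a pair overlaps by 2 bases, and Idi1 2 times. Of the 30 genes 24 had an entry, and 19 of these, or 79.2%, held CCAAT in this window, against 39.5% of 8833 tested genes with an entry. By role the CCAAT letters were in 14 of 16 genes of the mevalonate and sterol steps, 3 of 4 regulators and 2 of 4 fatty acid genes. The GC box GGGCGG, searched on both strands, was in 14 of 16 genes of the mevalonate and sterol steps, 3 of 4 regulators and 1 of 4 fatty acid genes, against 68.5% of tested genes. The sterol element letters were in Hmgcs1 alone of the 24, against 1.03% of tested genes. For each gene the first listed promoter was taken. For Acaca, a fatty acid gene without CCAAT letters, that window was chr11:84195188-84195487. It lies inside the annotated gene, which starts at base 84129672. These matches describe the letters in the window and were not tested.

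At the level of single genes the pathway was well expressed in both groups. Per exonic length, Scd2 was the highest of the 30, at 189 FPKM over the 6 libraries and place 199 of the 12199 tested genes, followed by Acly at 81.6, Hmgcs1 at 68.0, Fasn at 64.6, Acat2 at 52.1 and Srebf2 at 51.8 FPKM. The lowest were Tm7sf2 at 4.69 and Hsd17b7 at 4.98 FPKM. The median of these mean levels was 13.6 FPKM over the 19 genes of sterol synthesis and 41.2 FPKM over the 6 fatty acid genes.

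**Figure D1:**
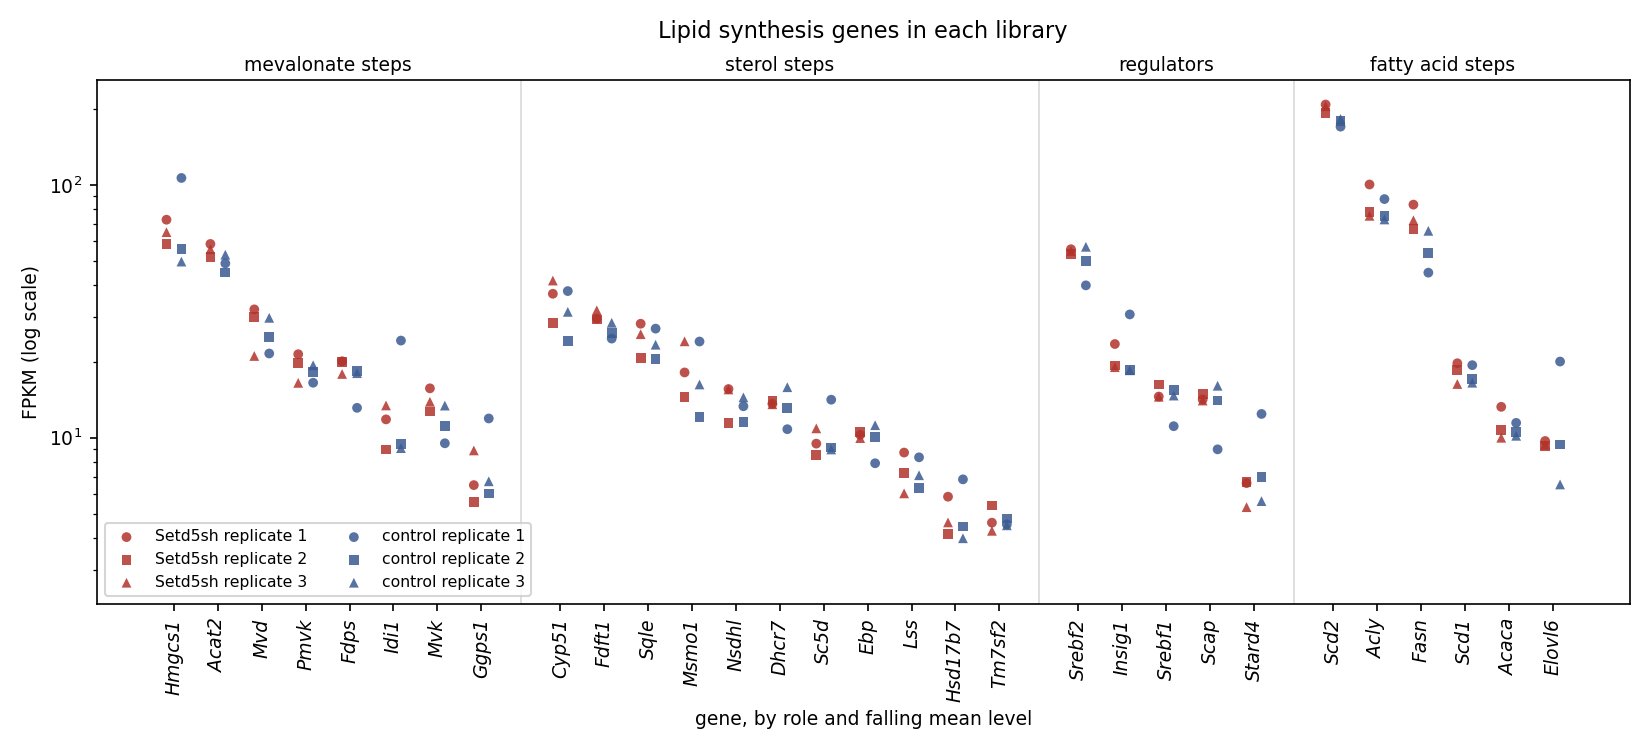
FPKM of each of the 30 genes (log axis) in Setd5sh libraries (red, left of each pair) and control libraries (blue), with 1 marker shape per replicate number. Genes run by role and by falling mean level, from Scd2 at 189 FPKM to Tm7sf2 at 4.69 FPKM over the 6 libraries. The blue circle of control replicate 1 lies above all other libraries for 8 genes: Hmgcs1, Idi1, Ggps1, Sc5d, Hsd17b7, Insig1, Stard4 and Elovl6.

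Among the mevalonate steps, Hmgcs1, whose enzyme condenses acetyl-CoA units into HMG-CoA, had 72.8, 58.3 and 65.0 FPKM in Setd5sh replicates 1, 2 and 3, against 106 FPKM in control replicate 1 and 55.7 and 49.7 FPKM in control replicates 2 and 3. The 3 Setd5sh libraries thus lay between control replicate 1 and the other controls. Its log2 fold change was -0.13 (SE 0.31, 95% interval -0.84 to 0.58), and 0.34 (SE 0.15, 95% interval 0.00438 to 0.68) without control replicate 1. In the fit without that library Hmgcs1 was the 1 gene of the 30 at an unadjusted p under 0.05 in edgeR (0.0476, adjusted 0.997), against 2.96% of all tested genes. Idi1, an isomerase of the prenyl units, was also highest in control replicate 1 and lowest in Setd5sh replicate 2: it had 11.8, 8.98 and 13.4 FPKM in Setd5sh libraries, against 24.2, 9.41 and 9.09 FPKM in control libraries. The difference was -0.35 (SE 0.41) with all libraries and 0.33 (SE 0.19) without control replicate 1. Ggps1, which makes the geranylgeranyl diphosphate used to anchor small GTPases in membranes, had 6.49, 5.56 and 8.90 FPKM in Setd5sh libraries and 11.9, 6.01 and 6.72 FPKM in control libraries, with differences of -0.26 (SE 0.32) and 0.16 (SE 0.21). Idi1, Ggps1 and, below, Insig1 were chosen for mention after their values were seen.

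Mvk, mevalonate kinase, was instead lowest in control replicate 1, with 15.7, 12.7 and 13.9 FPKM in Setd5sh libraries and 9.50, 11.1 and 13.4 FPKM in control libraries. The groups overlapped, and its log2 fold change of 0.31 (SE 0.18, 95% interval -0.12 to 0.73) was 0.23 without control replicate 1. Fdps, which makes farnesyl diphosphate at the branch between sterols and protein prenylation, had 20.1, 19.9 and 17.9 FPKM in Setd5sh libraries, against 13.1, 18.3 and 18.0 FPKM in control libraries, a difference of 0.22 (SE 0.16) that was 0.11 without control replicate 1. The exons of Fdps share 1124 bases, or 26.7%, with those of Gm43738 on the same strand, which averaged 0.0017 FPKM. Acat2, the cytosolic thiolase at the head of the route, had 58.4, 52.0 and 55.6 FPKM in Setd5sh libraries and 48.9, 45.0 and 52.9 FPKM in control libraries (log2 fold change 0.17, SE 0.14, and 0.20 without control replicate 1), and its near copy Acat3 did not exceed 0.44 FPKM. The kinase Pmvk averaged 19.2 ± 2.51 FPKM in Setd5sh libraries and 18.0 ± 1.43 FPKM in control libraries, and the decarboxylase Mvd 27.7 ± 5.90 and 25.4 ± 4.15 FPKM (SD, n = 3 each). Their log2 fold changes were 0.088 for Pmvk and 0.12 for Mvd, and 0.065 and 0.048 without control replicate 1. Of the 8 mevalonate genes 0 passed and 5 had a positive log2 fold change, which became 8 of 8 without control replicate 1, where 51.5% of all tested genes were positive.

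From squalene on, the log2 fold changes lay between -0.18 and 0.19. Fdft1, squalene synthase, which commits farnesyl diphosphate to sterols, had 29.6, 29.4 and 31.9 FPKM in Setd5sh libraries, against 24.6, 26.0 and 28.5 FPKM in control libraries. The groups did not overlap, which held for 3 of the 30 genes with Setd5sh higher, against 3.07% of all tested genes, and for 0 with Setd5sh lower, against 2.14%. The log2 fold change of Fdft1 was 0.19 (SE 0.13, 95% interval -0.11 to 0.50), and 0.18 without control replicate 1, and an exact two-sided permutation test on FPKM gave p = 0.1, the smallest that 3 against 3 allows. Its exons share 774 bases, or 18.3%, with those of Ctsb on the opposite strand, at 28.9 FPKM, and without a stated strand setting for the counting, reads of Fdft1 and Ctsb cannot be told apart there. Cyp51, lanosterol demethylase, the highest gene of these steps, had 37.1, 28.4 and 41.8 FPKM in Setd5sh libraries and 38.0, 24.2 and 31.4 FPKM in control libraries, and the groups overlapped. Its difference was 0.18 (SE 0.23) with all libraries and 0.39 (SE 0.19, 95% interval -0.039 to 0.82) without control replicate 1. Sc5d, a sterol desaturase, had 9.47, 8.52 and 10.9 FPKM in Setd5sh libraries and 14.1, 9.15 and 8.98 FPKM in control libraries, with differences of -0.18 (SE 0.23) and, without control replicate 1, 0.11 (SE 0.15).

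The remaining sterol enzymes overlapped between the groups. Sqle, squalene epoxidase, a controlled step of the route, averaged 24.8 ± 3.88 FPKM in Setd5sh libraries and 23.6 ± 3.30 FPKM in control libraries (SD, n = 3 each, as for the next values), and Lss, which closes the sterol rings, 7.33 ± 1.36 and 7.26 ± 1.03 FPKM. Msmo1, a methylsterol oxidase, averaged 18.9 ± 4.84 FPKM in Setd5sh libraries and 17.4 ± 6.07 FPKM in control libraries, and its partner in removing the methyl groups, Nsdhl, 14.2 ± 2.36 and 13.1 ± 1.45 FPKM. The reductase Hsd17b7 stood at 4.87 ± 0.872 FPKM in Setd5sh libraries and 5.10 ± 1.53 FPKM in control libraries, and the isomerase Ebp at 10.2 ± 0.285 and 9.72 ± 1.66 FPKM. Dhcr7, which makes cholesterol in the last reduction, averaged 13.7 ± 0.256 FPKM in Setd5sh libraries and 13.2 ± 2.52 FPKM in control libraries. The reductase Tm7sf2 averaged 4.76 ± 0.570 and 4.61 ± 0.157 FPKM, and 12.1% of its exonic bases are shared with Vps51 on the same strand. With all libraries the log2 fold changes of these 8 genes ran from -0.083 for Hsd17b7 to 0.10 for Nsdhl, and without control replicate 1 from -0.049 for Dhcr7 to 0.44 for Msmo1. Of the 11 sterol genes 0 passed and 9 were positive, with Sc5d and Hsd17b7 the exceptions. Without control replicate 1 the count was again 9, but the exceptions were Ebp at -0.024 and Dhcr7.

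Among the regulators, Srebf2 exceeded Srebf1 in every library, by 3.24-fold to 3.88-fold in FPKM. Srebf2 had 55.6, 53.4 and 54.7 FPKM in Setd5sh libraries and 40.0, 49.96 and 56.9 FPKM in control libraries, so the controls spanned the Setd5sh values. Srebf1 had 14.5, 16.2 and 14.5 FPKM in Setd5sh libraries and 11.1, 15.4 and 14.7 FPKM in control libraries. On the log2 scale Srebf2 differed by 0.15 (SE 0.16, 95% interval -0.21 to 0.51) and Srebf1 by 0.13 (SE 0.15, 95% interval -0.22 to 0.48). Without control replicate 1 these were 0.058 and 0.033. The ratio of Srebf2 to Srebf1 averaged 3.63 ± 0.294 in Setd5sh libraries and 3.58 ± 0.318 in control libraries (SD, n = 3 each; exact two-sided permutation p = 0.9). Scap, the escort of the SREBP precursors, averaged 14.4 ± 0.461 FPKM in Setd5sh libraries and 13.0 ± 3.63 FPKM in control libraries, a log2 fold change of 0.14 that was -0.040 without control replicate 1. Insig1, the retention protein that is itself a sensitive SREBP target, had 23.5, 19.3 and 19 FPKM in Setd5sh libraries and 30.7, 18.5 and 18.5 FPKM in control libraries, with a difference of -0.15 (SE 0.25) that turned to 0.19 (SE 0.15) without control replicate 1. Stard4, which carries cholesterol between membranes, had the lowest log2 fold change of the 30, -0.45 (SE 0.31, 95% interval -1.16 to 0.27). It had 6.61, 6.69 and 5.31 FPKM in Setd5sh libraries and 12.4, 6.98 and 5.61 FPKM in control libraries, and without control replicate 1 the difference was 0.0086 (SE 0.17).

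Among the fatty acid genes, Fasn, the synthase that assembles palmitate, had the highest positive log2 fold change of the 30 genes with all 6 libraries. It had 83.5, 67.1 and 72.4 FPKM in Setd5sh replicates 1, 2 and 3, against 44.9, 53.6 and 65.8 FPKM in control replicates 1, 2 and 3. Every Setd5sh library was above every control library, although Setd5sh replicate 2 and control replicate 3 lay close. The log2 fold change was 0.44 (SE 0.18, 95% interval 0.012 to 0.86), with an unadjusted p of 0.045 and an adjusted p of 0.995 in edgeR. Without control replicate 1 it was 0.34 (SE 0.17, unadjusted p of 0.0723 in edgeR), below Msmo1 at 0.44 and Cyp51 at 0.39, and it stayed between 0.33 and 0.59 without any single library.

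Scd2, the stearoyl-CoA desaturase of the brain and other tissues outside the liver, had 208, 192 and 205 FPKM in Setd5sh libraries, against 170, 179 and 182 FPKM in control libraries. The groups did not overlap, with a log2 fold change of 0.18 (SE 0.14, 95% interval -0.14 to 0.49) that was 0.19 without control replicate 1. Scd1, the form most abundant in liver and fat, had 19.7, 18.5 and 16.3 FPKM in Setd5sh libraries and 19.4, 17.1 and 16.5 FPKM in control libraries (log2 fold change 0.031, SE 0.15, and 0.14 without control replicate 1). Within a library Scd2 exceeded Scd1 by 8.78-fold to 12.6-fold, with a mean ratio of 11.2 ± 1.21 in Setd5sh libraries and 10.1 ± 1.18 in control libraries (SD, n = 3 each; exact two-sided permutation p = 0.5), and the neighbouring copies Scd3 and Scd4 did not exceed 0.41 and 0.12 FPKM. Elovl6, which lengthens palmitate, had 9.70, 9.28 and 9.37 FPKM in Setd5sh libraries and 20.0, 9.39 and 6.53 FPKM in control libraries. The 3 Setd5sh libraries were nearly equal while the controls spread to both sides, and the difference of -0.37 (SE 0.39) turned to 0.28 (SE 0.16) without control replicate 1. Acly, which makes cytosolic acetyl-CoA from citrate for both routes, averaged 84.7 ± 13.6 FPKM in Setd5sh libraries and 78.6 ± 8.04 FPKM in control libraries, and Acaca, which makes malonyl-CoA, 11.3 ± 1.70 and 10.7 ± 0.659 FPKM (SD, n = 3 each). The log2 fold change was 0.097 for Acly and 0.073 for Acaca, and 0.22 and 0.16 without control replicate 1. Of the 6 fatty acid genes 0 passed and 5 were positive, or 6 of 6 without control replicate 1.

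**Figure D2:**
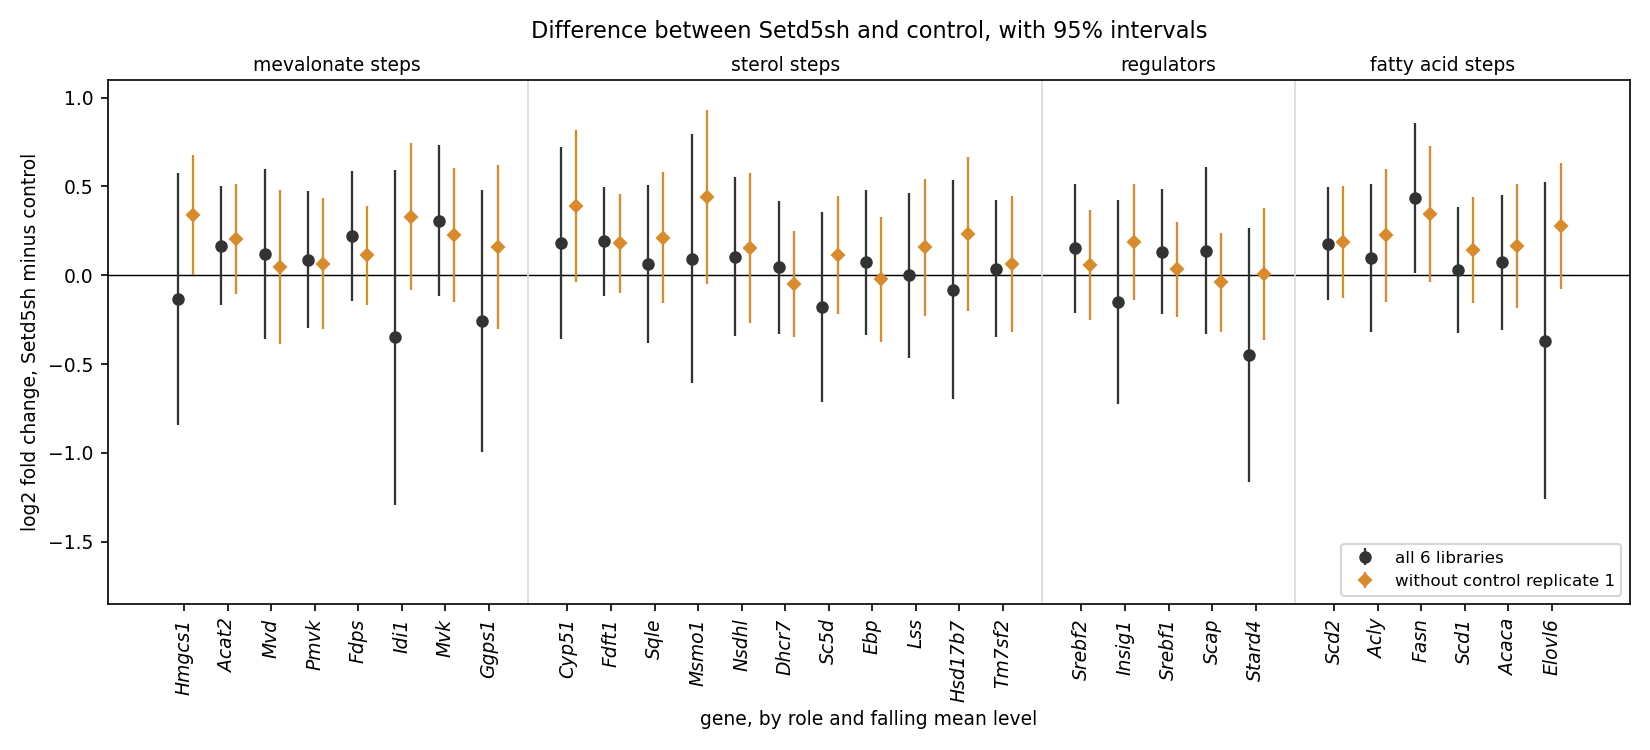
Log2 fold change, Setd5sh minus control, of each of the 30 genes from edgeR with its 95% interval (bars), from all 6 libraries (black circles) and without control replicate 1 (orange diamonds). With all libraries the Fasn interval alone clears 0, at 0.012 to 0.86, and without control replicate 1 the Hmgcs1 interval does, at 0.00438 to 0.68.

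For each library, the log2 CPM (counts scaled to library size with TMM, plus 0.5) was averaged over the 19 genes of sterol synthesis and over the 6 fatty acid genes. The sterol mean was 6.09, 5.84 and 6.00 in Setd5sh replicates 1, 2 and 3, and 6.12, 5.72 and 5.91 in control replicates 1, 2 and 3. The fatty acid mean was 8.27, 8.02 and 8.02 in Setd5sh libraries and 8.21, 7.89 and 7.89 in control libraries. In both groups replicate 1 was the highest for both sets, and the groups overlapped. The sterol mean minus the fatty acid mean, which is not per length and is read only between libraries, was -2.18, -2.18 and -2.02 in Setd5sh libraries and -2.09, -2.17 and -1.98 in control libraries. It averaged -2.12 ± 0.093 in Setd5sh libraries and -2.08 ± 0.095 in control libraries (SD, n = 3 each), a change of -0.045 that is smaller than the spread between replicates, and of -0.052 without control replicate 1.

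**Figure D3:**
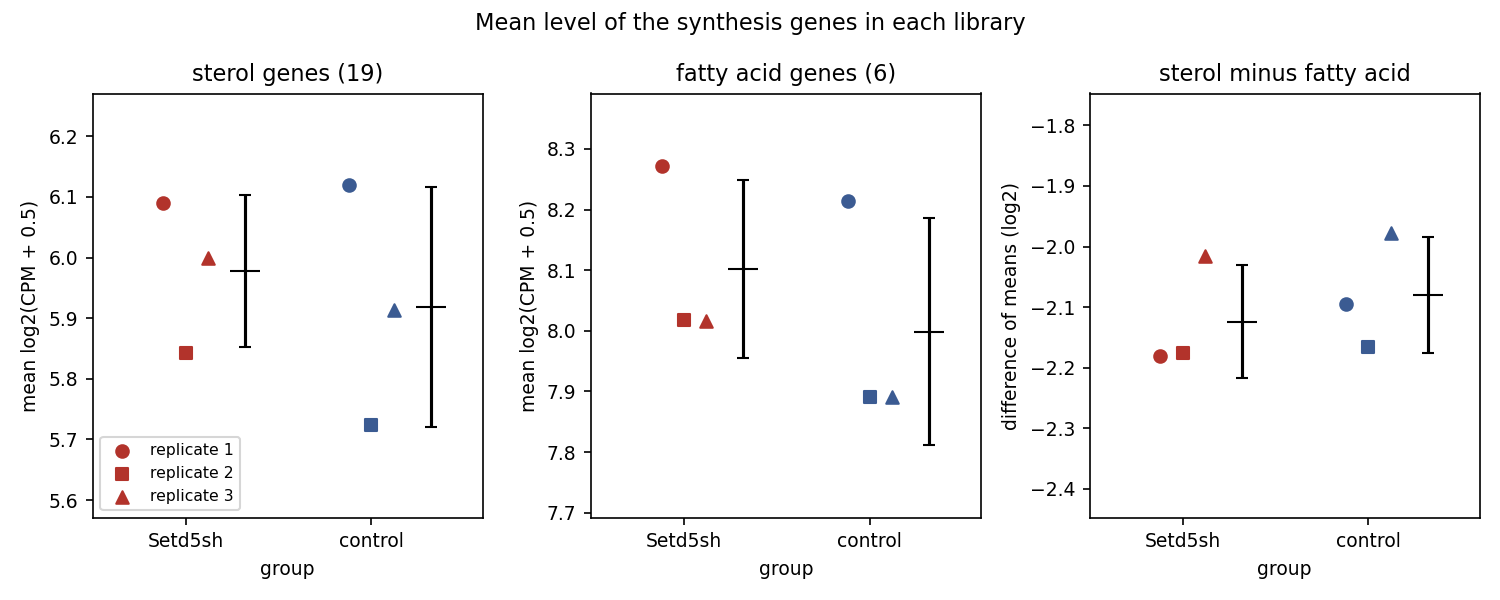
Mean log2(CPM + 0.5) of the 19 sterol synthesis genes and the 6 fatty acid genes, and the first minus the second, in each Setd5sh (red, left) and control (blue, right) library, with group mean and SD (black). All panels span the same log2 range. The difference averages -2.12 in Setd5sh and -2.08 in control libraries, within the SD of each.

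Control replicate 1 was the highest of the 6 libraries for 8 of the 30 genes and the lowest for 10, against 32% and 37% of all tested genes, and Setd5sh replicate 1 was the highest for 13 and the lowest for 0, against 11.4% and 14.9%. Set against the mean of control replicates 2 and 3, control replicate 1 differed by -0.65 for Scap to 1.46 for Idi1 on the log2 scale. This deviation followed the GC content of the transcript, which ran from 40.1% for Ggps1 to 59.1% for Scap. Across the 30 genes Spearman's rho was -0.88 and Pearson's r -0.86, against -0.63 and -0.62 across 12190 tested genes with a GC value. These are correlations across genes of the same libraries, and genes are not independent replicates. With exonic length rho was 0.040 across the 30 genes and 0.25 across the 12190 tested genes. A further fit, added once these values had been seen, took out the trend of every library on GC content and length. In it the log2 fold changes of Hmgcs1, Idi1, Stard4 and Elovl6 were 0.13, -0.040, -0.20 and -0.090, and that of Fasn 0.42. Fasn was there the 1 gene of the 30 at an unadjusted p under 0.05 in edgeR (0.0443), against 1.52% of all tested genes. In that fit 26 of the 30 genes had a positive log2 fold change, against 52.6% of all tested genes, and without control replicate 1 this held for 27 of 30. The medians were 0.096 and 0.16, against 0.012 and 0.0061 over all tested genes. The change in mean log2 level was 0.059 for sterol and 0.10 for fatty acid genes with all libraries. Without Setd5sh replicate 1 it was 0.0022 for sterol and 0.018 for fatty acid genes. Without control replicate 2 it was -0.039 and 0.049, and without control replicate 1 it was 0.17 and 0.22, the highest of these fits for both.

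**Figure D4:**
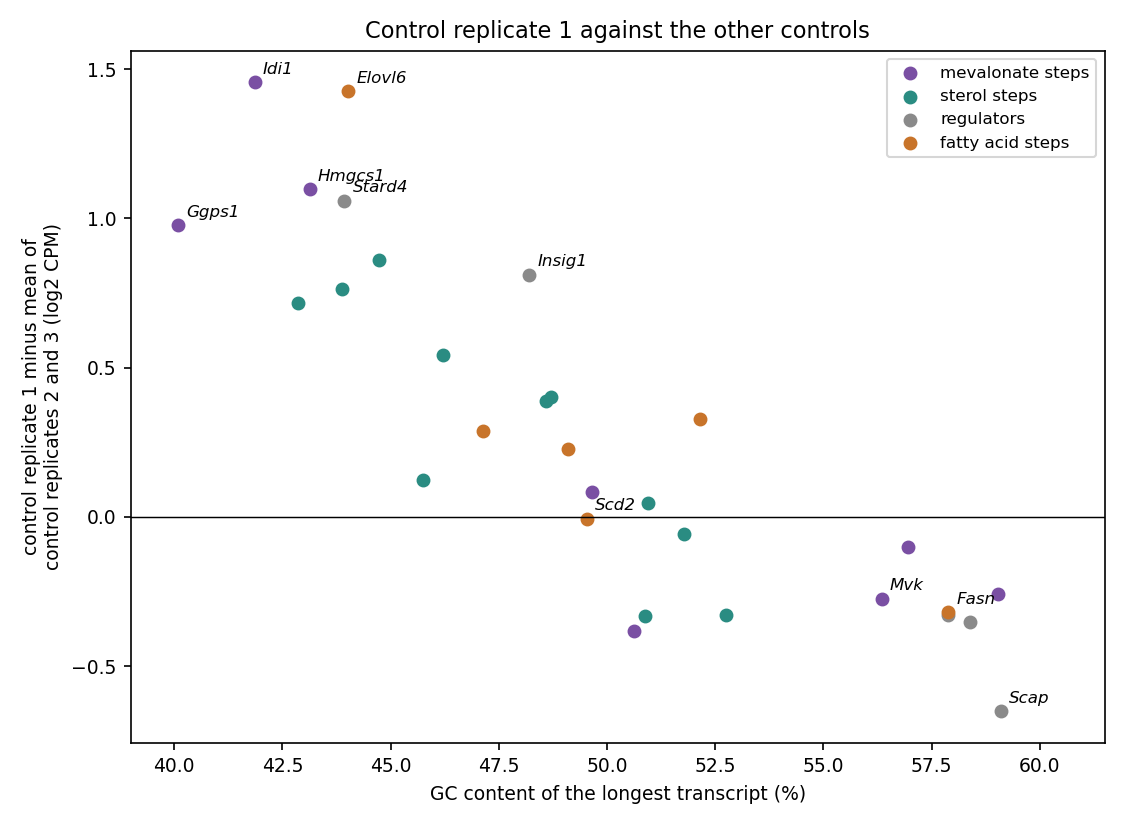
Log2 CPM of control replicate 1 minus the mean of control replicates 2 and 3 for each of the 30 genes, against the GC content of its longest transcript in percent, coloured by role. Values fall from 1.46 for Idi1 at 41.9% GC to -0.65 for Scap at 59.1% GC.

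Lists of 47 other genes around the pathway, of which 41 were tested, gave 0 calls. Only 1 gene of the 41, Oxsm, or 2.44%, was at an unadjusted p under 0.05 in edgeR, against 1.22% of all tested genes. A positive log2 fold change was found for 5 of 9 other sterol synthesis genes, 10 of 16 other fatty acid synthesis genes and 4 of 11 genes that control SREBP. It was also found for 1 of 5 genes of LXR and cholesterol handling (Nr1h2, Mylip, Soat1, Npc1 and Npc2), namely Mylip. Of the 41 genes together 20 were positive, or 48.8%, against 42.6% of all tested genes, and the median was -0.0046 against -0.043. Tmem97, a sterol-responsive membrane protein, had a log2 fold change of 0.14 (SE 0.16), which was 0.039 without control replicate 1. Oxsm, of mitochondrial fatty acid synthesis, had 1.18, 1.30 and 1.02 FPKM in Setd5sh libraries and 1.91, 1.63 and 1.59 FPKM in control libraries (log2 fold change -0.56, SE 0.24, unadjusted p of 0.0493 in edgeR), and -0.43 without control replicate 1. Acsl4, which activates long polyunsaturated fatty acids, had 8.84, 8.26 and 9.79 FPKM in Setd5sh libraries and 24.3, 10.2 and 9.52 FPKM in control libraries. Its log2 fold change of -0.74 (SE 0.37) was -0.11 (SE 0.13) without control replicate 1. Insig2, the relative of Insig1, stood at 4.77 ± 0.382 FPKM in Setd5sh libraries and 5.73 ± 0.384 FPKM in control libraries (SD, n = 3 each), with no overlap. Its log2 fold change was -0.28 (SE 0.17), and -0.18 without control replicate 1. Every Setd5sh library was below every control library for 3 of the 41 genes, Insig2, Oxsm and Soat1, against 2.14% of all tested genes. Every Setd5sh library was above every control library for 0 of the 41, against 3.07%. Mbtps2, a protease that frees SREBP, had a log2 fold change of -0.47 (SE 0.36), which was 0.087 (SE 0.17) without control replicate 1. In the list of LXR and cholesterol handling, Soat1, which esterifies cholesterol, and Npc1, which moves it out of lysosomes, stood at -0.10 (SE 0.12) and -0.091 (SE 0.18) on the same log2 scale, and at -0.079 and -0.22 without control replicate 1. The LXR target Abca1 was under the expression minimum, at 0.485 FPKM.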

How the data were processed

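Polyadenylated RNA of 6 libraries, 3 Setd5sh and 3 control, was measured; groups and replicate numbers come from the sample titles. The authors deposited raw read counts per gene, FPKM and exonic length for 55400 Ensembl genes. FPKM is the count scaled to exonic length and to the column total, per the file headers and a check on the file. HISAT2, SAMtools, HTSeq, DESeq2 and mm10 are named in the submitters' processing notes, without roles, while the annotation release and the strand setting used in counting are not given there. Symbols came from GENCODE M21, which matched 55140 identifiers (99.5%), and promoters from RefSeq.

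The test took genes whose FPKM averaged 1 or more across all libraries (12199 genes, all 30 members) with edgeR's quasi-likelihood test on counts, TMM scaling, no covariate and Benjamini-Hochberg adjustment (threshold 0.05, two-sided). Intervals are the log2 fold change ± the t quantile times its SE. GC content is that of the longest transcript. Alternatives were other scalings, filters, tools and pseudocounts, the replicate number as a block, leaving out each library, and, added after seeing the data, removal of GC and length trends with natural splines of 5 degrees of freedom. Scripts were tested on simulated data. Tools were edgeR 4.0.16 and DESeq2 1.42.0 with limma 3.58.1 under R 4.3.3, and matplotlib 3.10.9. The members and lists were chosen with earlier results of these data known. Values in every library are given for the 3 members with the smallest p in each role, the highest member of each role, and Srebf1, Srebf2, Scd1 and Scd2; of each other pathway list the 2 genes with the smallest p are named, except 1 gene that is not reported here.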

Additional observations from a re-analysis of the deposited data

How the results depend on the processing

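Without any filter on low values, edgeR called 73 of 29462 genes, against 0 in the reported fit; none of the 30 members and none of the other pathway genes was among them. In each of the other alternatives run, no gene was called, with 149 genes at an unadjusted p under 0.05 in the reported edgeR fit and 221 in DESeq2. Leaving out single libraries moved the median log2 fold change of the sterol genes between 0.0053 and 0.16, that of the fatty acid genes between -0.052 and 0.21, their difference in mean level between -0.099 and 0.0064, and Setd5 between -0.61 and -0.36, while the counts of called genes, members and other pathway genes stayed at 0.

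Leaving out a single library turned the sign for 21 of the 30 members and 28 of the 41 other pathway genes, none of them called. Among the genes with values in every library or named from the other lists, the log2 fold change then ranged from -0.34 to 0.34 for Hmgcs1, -0.60 to 0.33 for Idi1, -0.47 to 0.16 for Ggps1, -0.31 to 0.11 for Sc5d, -0.30 to 0.19 for Insig1, -0.67 to 0.0086 for Stard4, -0.67 to 0.28 for Elovl6, -0.045 to 0.14 for Scd1, -0.74 to 0.087 for Mbtps2 and -0.22 to 0.0041 for Npc1. With GC and length trends removed, Hmgcs1 was at 0.13, Ggps1 at 0.061, Sc5d at 0.047 and Soat1 at 0.049; with the replicate block added, Hmgcs1 was at 0.14, Ggps1 at 0.058, Sc5d at 0.046, Soat1 at 0.077, Idi1 at 0.0075 and Npc1 at 0.052. Beyond the construction of each alternative, the cause was not tested.

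The deviations of same-numbered libraries from their group means correlated at 0.18, 0.74 and 0.073 across genes for replicates 1, 2 and 3, so the third pair was under 0.1 and the numbers were not taken to pair the samples; Setd5sh replicate 3 correlated more with control replicate 1, at 0.26. With the replicate block, 0 genes were called, and the medians were 0.082 for sterol and 0.078 for fatty acid genes, the change in their difference -0.045 and Setd5 -0.50. With 3 libraries a group, the median distance from a member's log2 fold change to its interval bound was 0.44. This is the unadjusted 95% interval of a single gene, and a difference must be larger to pass after adjustment over all genes.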
